A study of Mus musculus with 9 samples.

Results

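Of the 54532 genes in the deposited count table of mouse hypothalamus, 10 are described here, and they are not the only ones with separate levels. The 10 are Fig4, Man2b2, Pop4, Cenps, Slc25a13, Nt5dc3, Nat8f4, Tpm3-rs7, Morn2 and Cdhr1, whose levels fell at separate steps from library to library. They were picked by name because their library values lay at separate levels that did not follow the study's groups, so the levels and the differences between groups below are a description and carry no test. All 10 passed the filter on low counts, as did 17546 genes in all. The table gives all 10 as protein coding.

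Libraries were made from 3 µg of total RNA of the hypothalamus, which governs appetite, body temperature and pituitary hormones. All 9 libraries came from wild type male mice of ICR, an outbred stock, on postnatal day 21. Pups of the HA group were nursed by mothers fed high-fat high-sucrose chow (45% of calories from fat) and received 4-PBA (4-phenylbutyric acid). Pups of the HP group had mothers on that same 45% fat chow and received PBS, the vehicle. Pups of the LP group had mothers on low-fat chow (10% of calories from fat) and received PBS. Injections were daily on postnatal days 4 to 16, and dams ate their diet for 5 weeks before mating and on through lactation. Each group had 3 libraries, written here as HA1 to HA3, HP1 to HP3 and LP1 to LP3. Animals of an outbred stock are not genetically identical, as background, but genotypes were not analysed here, and the part of inherited variants in any level was not tested.

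The 10 genes belong to unrelated pathways. Several work in complexes with a fixed set of partners: Fig4 with Vac14 and the lipid kinase Pikfyve on endosomes, Pop4 with the other protein subunits of RNase P, and Cenps with Cenpx at centromeres. Others have a close relative that does similar work, such as Slc25a13 with Slc25a12 and Man2b2 with Man2b1. Tpm3-rs7 is a relative of Tpm3 by sequence, which it shares almost whole. Values of partners and relatives in the same libraries are given beside those of a member as a description, because separate levels chose the members.

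Library totals lay between 18226924 and 21823961 counts. Hypothalamic genes were present throughout, with the hormone gene Avp at 385 to 726 CPM (counts scaled to library size by TMM) and the transcription factor gene Nkx2-1 at 35.0 to 46.4 CPM. Some libraries stood apart in genes of neighbouring tissue. The summed level of 10 genes of meningeal fibroblasts was 1160 CPM in HA3 and 583 CPM in LP3, while the other 7 libraries had 90.2 to 174 CPM. The summed level of 8 genes of striatal neurons was 272 CPM in LP1 and 369 CPM in LP2, against 144 to 160 CPM in the other 7. None of the 10 genes divided the libraries as HA3 and LP3 against the rest, or as LP1 and LP2 against the rest. In whole tissue, fewer cells of a type and less RNA per cell cannot be told apart.

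For each gene the 9 libraries were put in order of log2 CPM and the largest gap between adjacent libraries was taken. The 10 largest gaps ran from 0.61 for Man2b2 to 2.65 for Fig4, while the median over the 17546 genes was 0.14 and the 90th percentile was 0.56. A gap of 0.5 or more was taken as a break between levels, and 12% of all genes tested had one. By that measure 8 of the 10 had 2 levels, and Fig4 and Tpm3-rs7 had 3. The gap was 1 or more in 7 of the 10, and in 536 of all genes (3.05%). Among all genes, 50.5% had their largest gap beside a single library, whereas 9 of the 10 had at least 2 libraries on each side, Fig4 being the exception. Gaps chose these genes, so nothing is read from these shares.

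**Figure D1:**
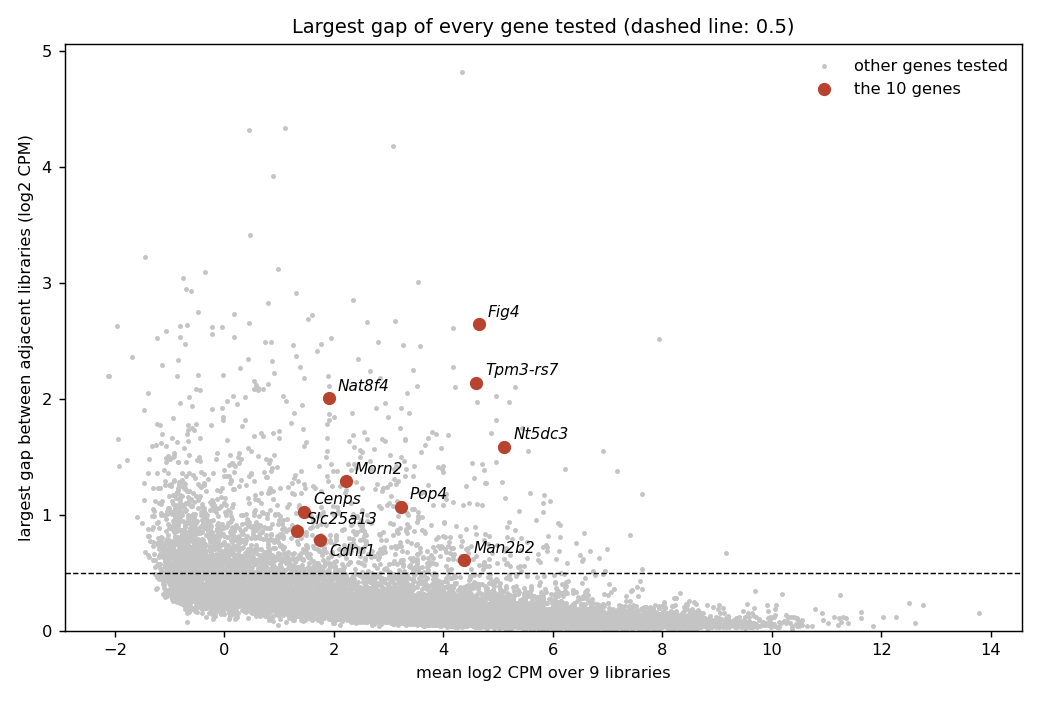
Largest gap between adjacent libraries against the mean level of the gene, for the 17546 genes tested in grey and the 10 genes in colour; both axes are on the log2 CPM scale. The 10 genes lie between 0.61 and 2.65, against a median of 0.14 over all genes, and gaps of all genes are larger at low levels.

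**Figure D2:**
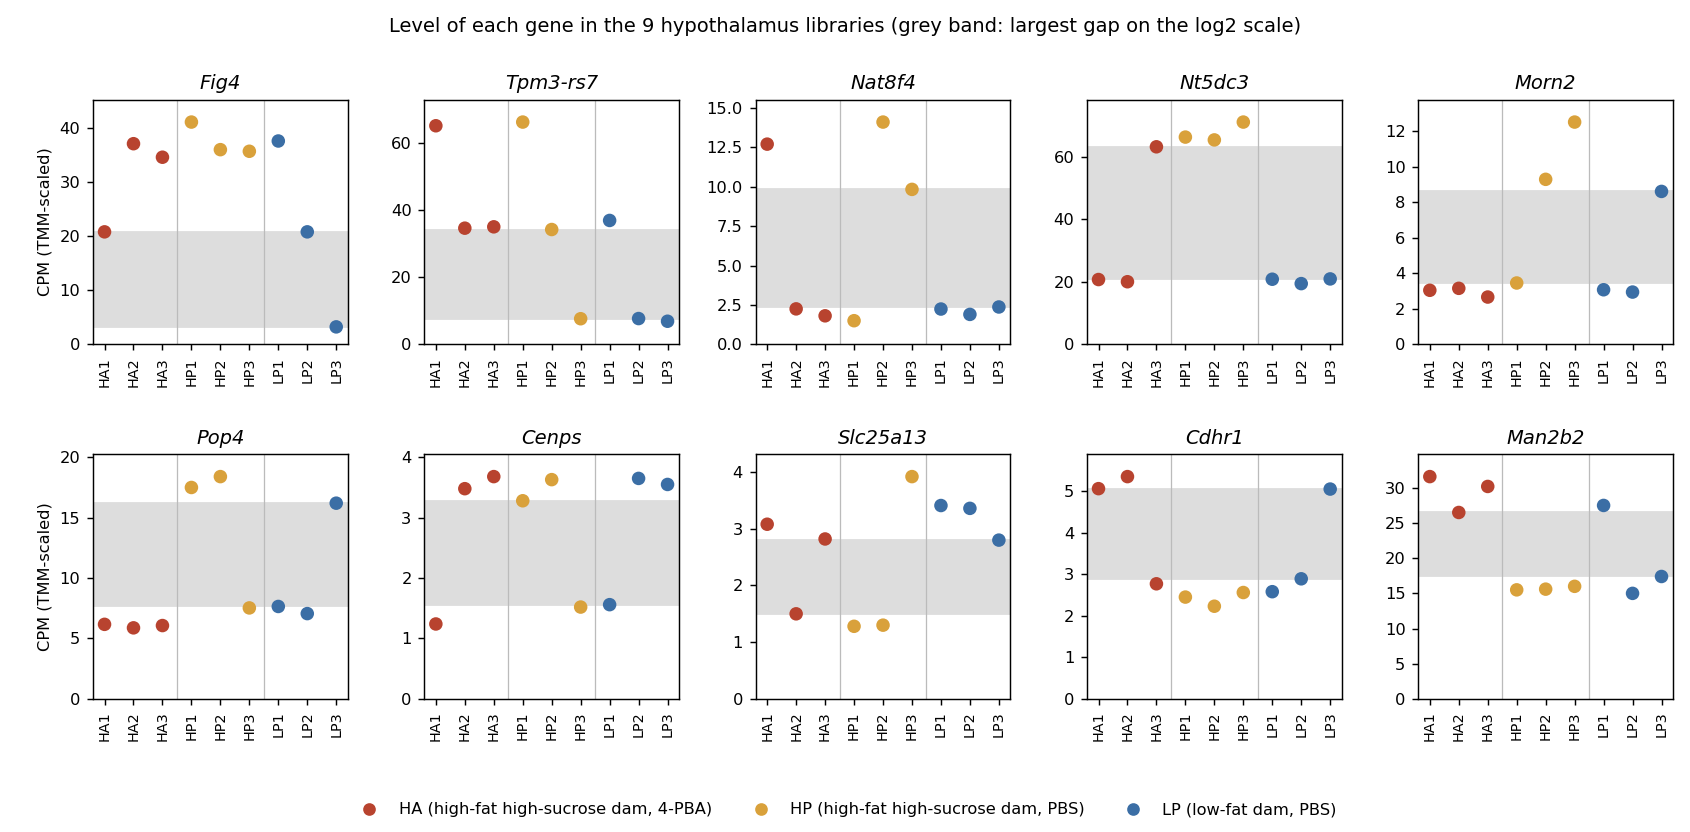
CPM of each of the 10 genes in each library, on linear axes from 0, with the groups HA, HP and LP from left to right, 1 point per library and a grey band over the largest gap. In Nt5dc3, for example, 4 libraries sit between 63.1 and 71.0 CPM and 5 between 19.4 and 20.9 CPM.

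Among the genes of endosomes and lysosomes, Fig4 and Man2b2 showed opposite shapes: 1 library far below the rest for Fig4, and a narrow gap between 2 near-equal sets for Man2b2. Fig4, on the minus strand at chr10:41188172-41303260, encodes a phosphoinositide phosphatase whose loss in mice leads to degeneration of neurons. Its level was 20.8, 37.1 and 34.6 CPM in HA, 41.1, 36.0 and 35.7 CPM in HP, and 37.6, 20.8 and 3.23 CPM in LP. The lowest library, LP3, stood alone on 60 counts, 6.44-fold below the next library up (a gap of 2.65 on the log2 scale). HA1 and LP2 made an intermediate level at 20.8 CPM each, and the other 6 libraries lay between 34.6 and 41.1 CPM. The step of 0.73 between the intermediate and upper levels was the second largest gap, and the largest without LP3. HP stayed within 1 level, HA held 2 levels and LP held all 3, so the groups overlapped. Only 24 genes (0.137%) had a gap as large as Fig4. LP3 was also 1 of the libraries high in meningeal genes, with a sum of 583 CPM. HA3, at 1160 CPM, had Fig4 at 34.6 CPM. The part of meningeal tissue in the level of Fig4 was not tested.

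The other genes of the Fig4 complex did not show such steps. Vac14, the scaffold that holds Fig4 and Pikfyve together, lay between 30.4 and 33.8 CPM over the 9 libraries, a ratio of highest to lowest of 1.11. Pikfyve, the kinase that makes the lipid Fig4 acts on, lay between 47.8 and 53.4 CPM, a ratio of 1.12. The same ratio was 12.7 for Fig4.

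Man2b2, on the minus strand at chr5:36806921-36830653, encodes a lysosomal alpha-mannosidase that trims the sugar chains of glycoproteins. Its level was 31.6, 26.5 and 30.2 CPM in HA, 15.5, 15.6 and 16.0 CPM in HP, and 27.5, 15.0 and 17.4 CPM in LP. All of HA and LP1 lay above the gap, and all of HP with LP2 and LP3 lay below it. The gap of 0.61, or 1.53-fold in CPM, was the smallest of the 10, and 1506 genes (8.58%) had one as large. Man2b1, the major lysosomal alpha-mannosidase, ranged from 28.9 to 34.0 CPM, a ratio of 1.18.

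In the nucleus, Pop4 and Cenps each divided the libraries 3 to 6. Pop4, on the minus strand at chr7:38261996-38271423, encodes a protein subunit of RNase P, the enzyme that cuts the leader from precursor tRNAs, and of the related RNase MRP. Its level was 6.17, 5.88 and 6.07 CPM in HA, 17.5, 18.4 and 7.53 CPM in HP, and 7.65, 7.06 and 16.2 CPM in LP. The upper level held HP1, HP2 and LP3, and the lower held all of HA with HP3, LP1 and LP2. Across the gap the level changed 2.12-fold, and 452 genes (2.58%) had a gap as large. The 10 other subunits of both enzymes that were tested had ratios of highest to lowest library of 1.15 to 1.69, against 3.13 for Pop4.

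Cenps, on the minus strand at chr4:149127121-149137629, encodes a histone-fold protein that sits at centromeres and, paired with Cenpx, binds the DNA repair helicase Fancm. Its level was 1.24, 3.48 and 3.68 CPM in HA, 3.28, 3.63 and 1.52 CPM in HP, and 1.56, 3.65 and 3.55 CPM in LP. Each group had 1 library at the lower level, HA1, HP3 and LP1, and 2 at the upper. The counts behind the edges of the gap were 32 in LP1 and 59 in HP1. Their exact Poisson 95% intervals overlapped as counts, where the lower edge reached 45.2 and the upper edge began at 44.9. Scaled to library size they did not, at 2.20 and 2.5 CPM. Cenpx lay between 9.68 and 12.8 CPM, a ratio of 1.32, and had no step of 0.5.

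The 3 genes of metabolism differed in how clear their steps were. Slc25a13, on the minus strand at chr6:6041218-6217173, encodes citrin, a mitochondrial carrier that exchanges aspartate for glutamate in the malate-aspartate shuttle. Its level was 3.08, 1.5 and 2.82 CPM in HA, 1.28, 1.30 and 3.92 CPM in HP, and 3.41, 3.36 and 2.80 CPM in LP. HA2, HP1 and HP2 made up the lower level and all of LP lay in the upper. The edges of its gap rested on 28 counts in HA2 (95% interval 18.6 to 40.5) and 52 counts in LP3 (38.8 to 68.2). These intervals overlap as counts, as did those of Cenps and Cdhr1. Scaled to library size, the intervals of Slc25a13 alone of the 10 overlapped, where the lower edge reached 2.16 CPM and the upper began at 2.09 CPM. An overlap of intervals does not by itself show that counts are alike, and the difference between these edges was not tested. Such intervals cover counting error only. Slc25a12, the form of the carrier known as the main one in brain, was far more abundant and even, at 217 to 241 CPM (ratio 1.11), and its transcript is only 72.6% identical to that of Slc25a13 over 1830 bases.

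Nt5dc3 gave the cleanest pair of levels: its largest gap was 15.8 times its next one. It lies on the plus strand at chr10:86779005-86838389 and encodes a protein with a 5′-nucleotidase domain. Its level was 20.7, 20.0 and 63.1 CPM in HA, 66.2, 65.3 and 71.0 CPM in HP, and 20.8, 19.4 and 20.9 CPM in LP. All of HP and HA3 lay at the upper level, and all of LP with HA1 and HA2 at the lower. The step was 3.02-fold and rested on 389 counts below and 1184 counts above. An unnamed gene model that overlaps Nt5dc3 on the same strand, and is identical to it over 1229 bases, was listed with 0 counts in every library, and the part of that overlap in the counts of Nt5dc3 was not tested.

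Nat8f4, on the minus strand at chr6:85899051-85904884, belongs to the Nat8 family of membrane-bound N-acetyltransferases, which lies in a cluster of near copies on mouse chromosome 6. Its level was 12.7, 2.25 and 1.81 CPM in HA, 1.5, 14.1 and 9.83 CPM in HP, and 2.24, 1.90 and 2.37 CPM in LP. HA1, HP2 and HP3 lay 4.16-fold or more above the other 6 libraries, with 188 to 275 counts against 27 to 46. Its closest transcript is that of Nat8f2, at 92.4% identity over 1857 bases. To show where the pair differs most, coding bases 525 to 614 of each are given, 5′ to 3′, from GENCODE M21 transcripts on GRCm38. They lie at chr6:85900926-85901015 for Nat8f4 and chr6:85867765-85867854 for Nat8f2, both on the minus strand. This stretch was picked as the 90 bases without gaps that hold the most mismatches, so reads elsewhere can be harder to tell apart. Capitals mark the 19 bases that differ, of 73 mismatches over the 678 aligned coding bases, beside 36 bases in gaps.
Nat8f4: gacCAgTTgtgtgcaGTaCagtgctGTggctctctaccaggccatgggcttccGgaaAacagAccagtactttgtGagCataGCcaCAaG
Nat8f2: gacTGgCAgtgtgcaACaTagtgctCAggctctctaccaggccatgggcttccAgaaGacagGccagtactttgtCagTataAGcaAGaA
Nat8f2 itself had 0 to 10 counts per library, at most 0.523 CPM. The sum of both genes ran from 1.5 to 14.4 CPM and kept the step at the same place, but Nat8f2 added little to that sum. Counts of Nat8f2 were highest in HA1, HP2 and HP3, at 6, 5 and 10, the libraries where Nat8f4 was high. In the other libraries Nat8f2 had at most 3 counts.

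Among genes of the cytoskeleton and membrane, Tpm3-rs7 had the clearest 3 levels. Tpm3-rs7 lies on the plus strand at chr14:113314608-113316754 and is related in sequence to Tpm3, a tropomyosin gene whose protein winds along actin filaments. The deposited table gives it as protein coding, GENCODE tags it as a retrogene and RefSeq lists it as a pseudogene. Its level was 65.1, 34.6 and 35.0 CPM in HA, 66.2, 34.2 and 7.63 CPM in HP, and 36.9, 7.68 and 6.88 CPM in LP. HA1 and HP1 stood at 65.1 to 66.2 CPM, HA2, HA3, HP2 and LP1 at 34.2 to 36.9 CPM, and HP3, LP2 and LP3 at 6.88 to 7.68 CPM. The lower step was 4.46-fold (2.14 on the log2 scale), and 69 genes (0.393%) had a gap as large.

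The transcripts of Tpm3-rs7 and Tpm3 were 99.1% identical over 2108 bases, 98% of the Tpm3-rs7 transcript. Their coding sequences, of 744 bases each, differed at 3 positions. These are G72A, G98A and G127A, counted from 1 at the first coding base, with the base of Tpm3 first. All 3 fall within coding bases 38 to 127, given here 5′ to 3′ from GENCODE M21 transcripts on GRCm38 with the differing bases in capitals, because they are the only coding bases that tell the copies apart. The stretch lies at chr14:113314713-113314802 for Tpm3-rs7 and at chr3:90079769-90079858 for Tpm3, both on the plus strand.
Tpm3-rs7: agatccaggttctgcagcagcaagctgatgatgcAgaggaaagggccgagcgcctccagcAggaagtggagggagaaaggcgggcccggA
Tpm3: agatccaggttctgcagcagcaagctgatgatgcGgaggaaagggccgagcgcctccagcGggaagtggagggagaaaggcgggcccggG
Counts of either gene are therefore uncertain. Tpm3 was at 50.3, 86.0 and 90 CPM in HA, 50.6, 85.6 and 117 CPM in HP, and 87.8, 121 and 119 CPM in LP, lowest in the 2 libraries where Tpm3-rs7 was highest and highest in the 3 where it was lowest. The sum of both was nearly flat, at 115 to 129 CPM, with a coefficient of variation over the 9 libraries of 3.68%, against 69.4% for Tpm3-rs7 and 29.8% for Tpm3 alone. Tpm3-rs7 took 56.4% and 56.7% of the sum in HA1 and HP1, 28.0% to 29.6% in the 4 libraries of the middle level, and 5.46% to 6.13% in the other 3. The largest gap of the sum was 0.05, so the step was in the division of counts between the copies and not in their total. How the reads were shared out between the copies was not tested.

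**Figure D3:**
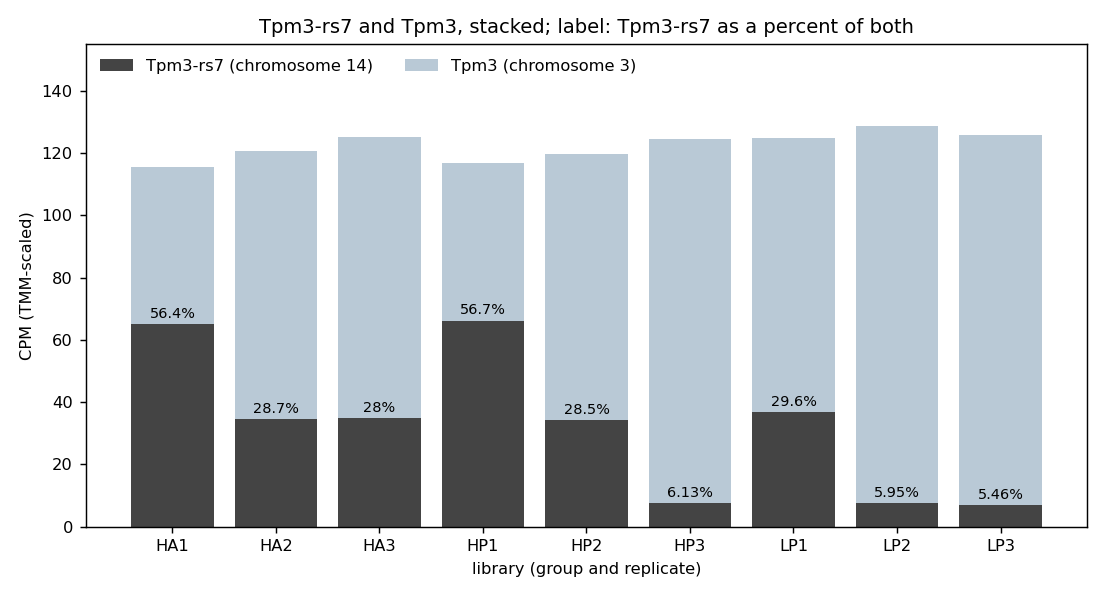
CPM of Tpm3-rs7 and Tpm3 stacked in each library, with the groups HA, HP and LP from left to right and the share of Tpm3-rs7 printed as a percent. The bars reach 115 to 129 CPM in all libraries while the share of Tpm3-rs7 is 56.4% to 56.7%, 28.0% to 29.6% or 5.46% to 6.13%.

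Morn2, on the plus strand at chr17:80290203-80297476, encodes a small protein with MORN repeats. Its level was 3.04, 3.15 and 2.66 CPM in HA, 3.45, 9.28 and 12.5 CPM in HP, and 3.07, 2.94 and 8.60 CPM in LP. HP2, HP3 and LP3 lay 2.49-fold or more above the rest, and all of HA lay at the lower level. Morn2 overlaps Dhx57, a gene on the other strand, by 274 bases. The library kit is not described as stranded, so it is not known whether reads of the overlap were assigned by strand. Dhx57 ran from 45.4 to 59.3 CPM, a far narrower range than that of Morn2.

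Cdhr1, on the minus strand at chr14:37077857-37098347, encodes a cadherin-related protein known from photoreceptors and the olfactory bulb. Its level was 5.06, 5.35 and 2.77 CPM in HA, 2.45, 2.23 and 2.56 CPM in HP, and 2.58, 2.89 and 5.05 CPM in LP. HA1, HA2 and LP3 lay above the gap of 0.78, or 1.75-fold, and all of HP lay below it. The Poisson 95% intervals at its edges overlapped as counts (61 and 94) but not when scaled to library size, at 3.71 and 4.08 CPM. The summed level of 6 marker genes of retina and olfactory bulb was 1.92 to 3.30 CPM in HA, 2.95 to 3.35 CPM in HP and 1.08 to 3.36 CPM in LP. None of the 6 was at 0 in every library, but only 3 passed the filter on low counts, and Crx was at 0 in all but LP2. In HA1, HA2 and LP3, where Cdhr1 was high, that sum was 2.26, 1.92 and 1.08 CPM, the 3 lowest values of the 9 libraries. Sums this low rest on few counts, and the part of such cells in the level of Cdhr1 was not tested.

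Per length of transcript, the 10 genes covered a wide range of levels. The mean FPKM over the 9 libraries was 15.2 for Tpm3-rs7, 9.0 for Fig4, 8.22 for Morn2, 6.77 for Nt5dc3 and 6.13 for Man2b2. It was 3.60 for Pop4, 1.67 for Nat8f4, 1.48 for Cenps, 0.791 for Cdhr1 and 0.684 for Slc25a13. Within a gene the FPKM of single libraries ran, for example, from 0.981 to 12.5 for Fig4 and from 4.22 to 8.94 for Man2b2. Those ranges overlap between all neighbours in this order.

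The 10 genes divided the libraries in 10 different ways. Each gene divided at least 1 of the groups: HA was divided by 5 of the genes, HP by 6 and LP by 7. A library lay above the gap for 6, 5 and 6 of the 10 genes in HA, for 5, 7 and 5 in HP, and for 4, 3 and 5 in LP, so no library was high or low throughout. Libraries of the same group lay on the same side of the gap in 54 of 90 pairs (60%), and libraries of different groups in 132 of 270 (48.9%). Titles also carry a code whose meaning is not stated, which is Hg43 for HA1, HA2, HP1 and HP2, Hg13 for HA3 and HP3, Lg42 for LP1, and Lg63 for LP2 and LP3. Libraries with the same code lay on the same side in 42 of 80 pairs (52.5%), and those with different codes in 144 of 280 (51.4%). Single genes departed from this, with Tpm3-rs7 on the same side in 7 of 8 pairs of equal code and in 11 of 28 of unequal code. Pairs of libraries are not independent, and these shares carry no test.

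**Figure D4:**
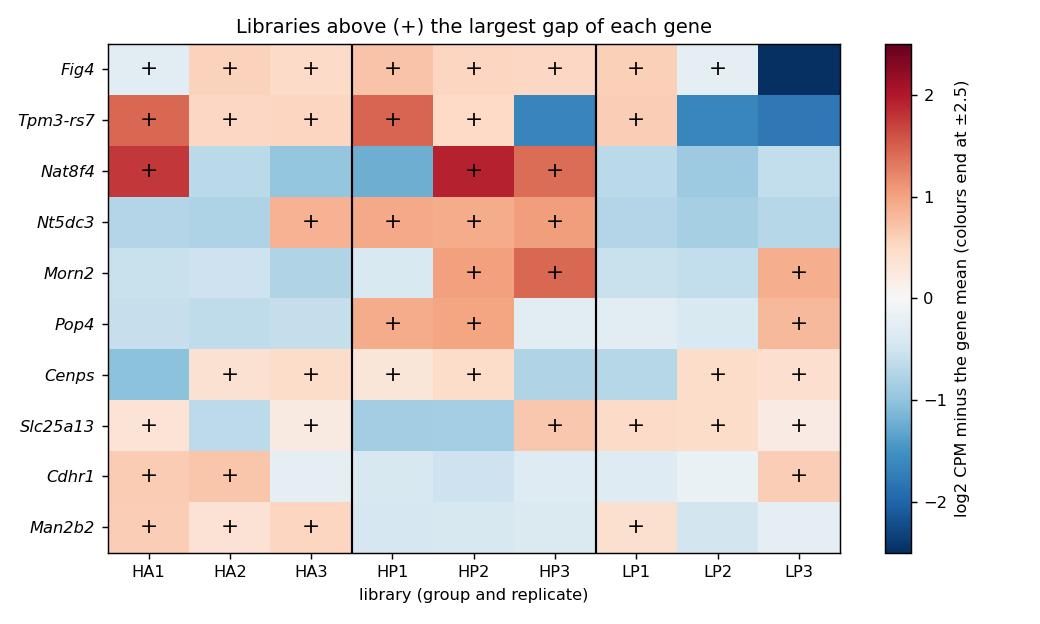
Log2 CPM of each of the 10 genes minus its mean over the 9 libraries (red higher, blue lower), with the groups HA, HP and LP from left to right and a plus sign in libraries above the largest gap of the gene. No 2 genes have the same pattern of plus signs, and every gene divides at least 1 group.

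Genes near each other were also compared by their divisions of the libraries. Nt5dc3 and Fig4 lie 45.5 Mb apart on chromosome 10, Slc25a13 and Nat8f4 79.7 Mb apart on chromosome 6, and Cdhr1 and Tpm3-rs7 76.2 Mb apart on chromosome 14, and no such pair had the same division of libraries. Within 1 Mb of the 10 genes lay 171 neighbours that were tested, none of them near Tpm3-rs7. None of the 171 had its own largest gap at the same division of libraries, and 21 (12.3%) had a gap of 0.5 or more, against 12% of all genes. Over all genes the share with the same division was 5.08% for Fig4, which had 22 of the neighbours. For each other member it was between 0.0399% and 0.16%. With shares this small, finding none among the neighbours says little. The neighbour that ranked highest among all genes by likeness to its member was Gemin6, a gene of the SMN complex that assembles small nuclear ribonucleoproteins, 61.7 kb from Morn2. Of all genes tested it had the pattern most like Morn2, with a root mean square difference of centred log2 CPM of 0.454. Gemin6 stood at 1.89, 1.66 and 1.92 CPM in HA, 2.0, 2.54 and 3.71 CPM in HP, and 1.70, 1.23 and 3.28 CPM in LP. It was highest in HP3, LP3 and HP2, the 3 libraries where Morn2 was high, but its largest gap fell elsewhere. In absolute terms Ccdc96, 319 kb from Man2b2, was nearer to its member (0.333) but ranked 146 among all genes.

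The 3 genes most like each member by that measure, over the 9 libraries, made 30 genes. Of these 14 had the same division of libraries as their member, 12 were unnamed gene models and 3 lay on the same chromosome. They were picked for likeness to the member, so a shared division followed from that choice and nothing is read from it. Their counts per library were often low, such as 5 to 13 for Tssk4 and 1 to 21 for Aanat, and reached 182 for Srp54b. Nt5dc3 was most like Ifih1 (0.369), Igsf6 (0.418) and Armc3 (0.422). Man2b2 was most like Pex11g (0.186), Tssk4 (0.211) and Sbsn (0.216), and Cdhr1 was most like Kcnd3os (0.153), Cdca7 (0.21) and Exd1 (0.223). Pop4 was most like Cbx3-ps7 (0.362), Eppk1 (0.378) and Nmu (0.381), while the closest named gene to Fig4 was Aanat (0.548). The named genes most like Cenps were Rnf125 (0.26) and Txlnb (0.278). For Nat8f4 and Slc25a13 all 3 were unnamed models, and for Nat8f4 they were no nearer than 0.854. The gene most like Tpm3-rs7 was the unnamed model Gm43713 (0.349), singled out after its values were seen because it lies on chromosome 3, 1.17 Mb from Tpm3. Gm43713 had 1.43, 0.428 and 0.692 CPM in HA, 0.612, 0.570 and 0.0523 CPM in HP, and 0.731, 0.0474 and 0 CPM in LP. Its 3 lowest libraries were those where Tpm3-rs7 was lowest, and its highest count in any library was 31. The other 2 were Skor2 (0.621) and Srp54b (0.642, on chromosome 12). Srp54b had the same division of libraries as Tpm3-rs7, at 2.95, 8.82 and 4.95 CPM in HA, 10.1, 5.03 and 0.941 CPM in HP, and 6.92, 1.42 and 0.860 CPM in LP, on 16 to 182 counts.

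Each of the 10 genes was set beside a list of partners or relatives, 55 other genes in all that were tested. None of the 55 passed edgeR's quasi-likelihood test at an adjusted p of 0.05 in any comparison, and none passed with DESeq2. At an unadjusted p under 0.05, 1 of 55 passed between HP and LP, 2 between HA and HP and 1 between HA and LP. The median log2 fold change of the 55 was 0.01 with HP set against LP, -0.03 with HA set against HP and -0.03 with HA set against LP, while that of all genes was within 0.01 of 0 each time. The ratio of the highest to the lowest library had a median of 1.28 over the 55, against 1.34 over all genes tested. A gap of 0.5 or more was found in 6 of the 55 (10.9%): Tpm3, described above, Tpm2, Nat8f3, Nat8f5, Nat8f6 and Morn3. Tpm2, a tropomyosin gene of muscle and fibroblasts, stood at 19.4 CPM in HA3, the library highest in meningeal genes, against 2.09 to 4.41 CPM in the others. Morn3 reached a ratio of 7.64 but on only 0.160 to 1.23 CPM. The other 6 malate-aspartate shuttle genes had ratios of 1.11 to 1.24, against 3.06 for Slc25a13. In 9 of the 10 lists the member had the highest ratio, and in the list of MORN proteins Morn3 did. Members were picked for values at separate levels, so a high ratio followed from that choice and nothing is read from it.

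**Figure D5:**
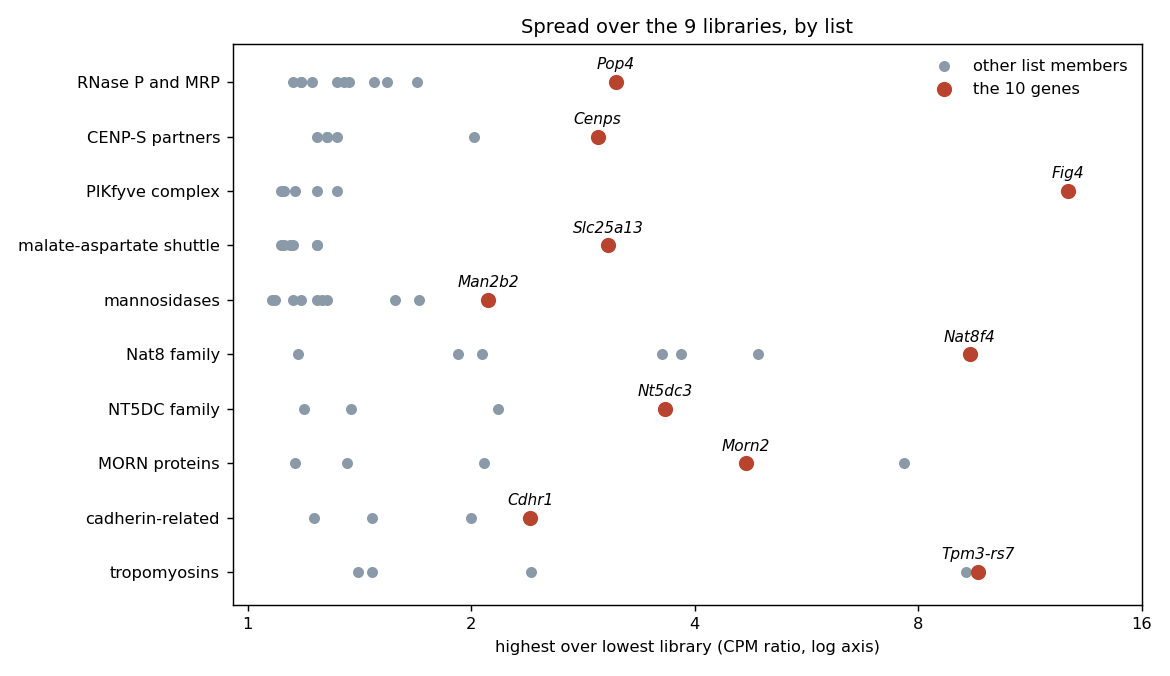
Ratio of the highest to the lowest of the 9 libraries in CPM, on a log axis, for each of the 10 genes in colour and for the partners or relatives on its list in grey. Fig4 is at 12.7 while its complex partners Vac14 and Pikfyve are at 1.11 and 1.12; among tropomyosins Tpm2 lies close to Tpm3-rs7.

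Comparisons between groups are given with edgeR's test over all 17546 genes, and members' counts are a description because their pattern across libraries chose them. For HP against LP, which differ in the diet of the dam, 0 of 10 passed an adjusted p of 0.05 (0.0114% of all genes did). HA against HP, which differ in the injection, gave 0 of 10 (0.0114% of all genes). HA against LP gave 0 of 10 (0% of all genes). At an unadjusted p under 0.05, 2 of 10 passed between HP and LP (6.12% of all genes), 5 of 10 between HA and HP (5.42%) and 1 of 10 between HA and LP (6.51%). With DESeq2 at an adjusted p of 0.05, 0 of 10 passed between HP and LP (0.143% of all genes), 1 of 10, Man2b2, between HA and HP (0.0496%) and 0 of 10 between HA and LP (0.127%). Libraries of HP and LP did not overlap for 2 of 10, Nt5dc3 and Cdhr1, against 11.8% of all genes. For Cdhr1 both groups held libraries of the lower level, such as HP3 at 2.56 CPM and LP1 at 2.58 CPM. Libraries of HA and HP did not overlap for 5 of 10, Nt5dc3, Pop4, Morn2, Man2b2 and Cdhr1, against 11.8% of all genes. Of these 5, only Man2b2 had the groups on opposite sides of its gap. In the rest both groups held libraries of the same level, such as HA3 at 63.1 CPM and HP2 at 65.3 CPM for Nt5dc3. Libraries of HA and LP did not overlap for 1 of 10, Pop4, against 10.9% of all genes. There too both groups held libraries of the lower level, such as HA1 at 6.17 CPM and LP2 at 7.06 CPM. These comparisons share libraries. Whether pups within a group had different mothers is not stated in the labels, and p-values therefore reflect the variation among these libraries only.

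Whether Nt5dc3 and Man2b2 passed depended on the libraries and settings used. With all libraries the edgeR log2 fold change of Nt5dc3 was 1.73 for HP against LP (adjusted p 0.464) and -0.97 for HA against HP (adjusted p 0.84). Without HA3, the 1 HA library at the upper level of Nt5dc3 and the library highest in meningeal genes, it was 1.73 (edgeR adjusted p 1.46e-06) and -1.72 (edgeR adjusted p 6.2e-06). The fold for HP against LP was thus the same and only its p differed, HA3 being in neither of those groups. Nt5dc3 also passed for HP against LP with all libraries and no filter on low counts (edgeR adjusted p 0.000149). Man2b2 had a log2 fold change of 0.91 for HA against HP with all libraries (edgeR adjusted p 0.84). It passed without LP1 (edgeR adjusted p 0.0262), with no filter (0.00475), with the HA and HP libraries alone (0.0436) and with DESeq2 (0.0021). These genes were picked on these same libraries, and none of this is independent evidence of a difference between groups.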

How the data were processed

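RNA-seq of 9 hypothalamus libraries was used, 3 in each of the groups HA, HP and LP. The authors deposited whole-number read counts per gene, not normalized, and FPKM values of the same libraries, which divide counts by gene length and library size. Per the submitters' processing notes, the tools were featureCounts 1.5.0-p3, HISAT2 2.0.5 and DESeq2 1.16.1. The notes name mm9, but 10 of 10 members had the start and end of GENCODE M21 on GRCm38, so coordinates are read as GRCm38.

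Counts were filtered with filterByExpr, scaled by TMM and tested with edgeR 4.0.16 (quasi-likelihood F test, two-sided) in R 4.3.3, with the group as the only term over all 9 libraries and Benjamini-Hochberg adjustment over the 17546 genes kept, and a threshold of 0.05 (common dispersion 0.0199). A prior count of 2 was added for log2 CPM, and a level break is a gap of 0.5 or more. Likeness of 2 genes is the root mean square difference of log2 CPM, each gene centred on its mean. Neighbours are genes within 1 Mb. Transcripts were compared with BLAST 2.17.0. Poisson intervals are exact at 95% and cover counting error only. The code for the edgeR fit and for finding the largest gap was tried on simulated counts, which is no test of the levels of any member.

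The members and lists were chosen with earlier results of these data known. Genes named are the 10 members, the 3 most like each, genes that overlap a member, neighbours with the same division of libraries, listed partners that passed the test, and close relatives of members. Unnamed models were counted. Gm43713, Ccdc96, Tpm2 and Morn3 were named after their values were seen, and Fancm as background. Alternatives were RLE scaling, library totals, no filter, DESeq2 1.42.0, a prior count of 0.5 and FPKM for the gaps, counts summed with the closest copy for Tpm3-rs7 and Nat8f4, each library left out, a replicate block, only the HA and HP libraries, and the title code as a term. Leaving out HA3 and LP3 together was chosen after seeing the data. Deviations of libraries with the same replicate number correlated over 0.1 in every pair of HA and LP (0.256, 0.144 and 0.486), but not in every pair of HP and LP (0.137, -0.0276 and 0.159) or of HA and HP (0.0817, 0.00387 and 0.118). Libraries with unequal numbers were not compared, so this check cannot show whether the numbers mark pairs, and the labels do not say. The largest value, 0.486, joined HA3 and LP3, the libraries highest in meningeal genes.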

Additional observations from a re-analysis of the deposited data

How the results depend on the processing

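Of 142 alternative values of the gaps, 139 moved by less than the spread between replicates and kept the same division of libraries, including all 40 under other scalings, prior counts or FPKM. That spread is the standard deviation of the same gene within groups, which the steps themselves widen, so it is a loose limit. It ran from 0.273 for Man2b2 to 1.31 for Nat8f4, against a median of 0.133 over all genes. The 3 that moved were Fig4 without LP3 (0.73), Fig4 without LP3 and HA3 (0.77, chosen after seeing the data) and Tpm3-rs7 summed with Tpm3 (0.05). With each library left out in turn the gaps were 0.73 to 2.65 for Fig4, 2.14 to 2.16 for Tpm3-rs7, 2.0 to 2.37 for Nat8f4, 1.59 to 1.64 for Nt5dc3, 1.29 to 1.42 for Morn2, 1.07 to 1.19 for Pop4, 1.03 to 1.11 for Cenps, 0.86 to 1.06 for Slc25a13, 0.78 to 0.84 for Cdhr1 and 0.61 to 0.73 for Man2b2.

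Genes called over the whole table numbered 2 between HP and LP, 2 between HA and HP, and 0 between HA and LP, and the counts below keep that order. They were 1, 2 and 0 with library totals, 53, 5 and 41 with no filter, 32, 8 and 27 with DESeq2, and 37, 10 and 23 without LP3 and HA3. With the HA and HP libraries alone there were 2 for HA against HP, and 3 with the title code as a term. With 1 library left out there were 1 to 21, 1 to 9 and 0 to 14, highest without LP3 for HP against LP (21) and HA against LP (14) and without HA3 for HA against HP (9). Members called, 0 in each comparison, were 1, 1 and 0 with no filter, 0, 1 and 0 with DESeq2, 1, 1 and 0 without LP3 and HA3, and 0 to 1, 0 to 1 and 0 with 1 library left out. With the HA and HP libraries alone 1 member was called, with or without the title code. These calls were of Nt5dc3 or Man2b2, and the cause was not tested.

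With a replicate block 4, 2 and 0 genes and 0, 0 and 0 members were called. The block thus changed no call of a member and no count for HA against HP or HA against LP. Whether the replicate numbers mark pairs is not known for any comparison, because libraries with unequal numbers were not compared. Depth limits Slc25a13 most, whose gap lies between 28 and 52 counts.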
